A study of Rattus norvegicus with 48 samples.

Results

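Hearts of salt-loaded Dahl rats that had received an antibody against marinobufagenin were compared with hearts of salt-loaded rats that had received a control antibody, on 6 bead arrays per group, which are 12 of the 48 arrays of the study. The arrays were chosen by their labelled tissue, diet and antibody. All animals were male Dahl salt-sensitive rats of the inbred SS/JrHsd strain, aged 16 weeks by the labels, and all 12 ate a diet with 8% NaCl. The antibody group received the anti-marinobufagenin monoclonal antibody of clone 3E9, and the control group received mouse isotype IgG1, each as a single intraperitoneal dose of 50 µg of IgG per kg in diet week 7 at 15 weeks of age. By the protocol the diets began at 6 weeks of age and lasted 8 weeks, which does not add up with the ages at treatment and at tissue collection, and these are given as labelled. The protocol gives 7 treated animals per group, and each of the 6 arrays per group carried the number of its own animal. The sample titles name the piece of heart as the lateral ventricle and the study's design text names it as the left ventricle. The remaining arrays held left ventricle on a diet with 0.1% NaCl under the same antibodies, and kidney of the same animals. The study asked what the antibody does to profibrotic signalling by transforming growth factor β (TGF-β) in salt-sensitive hypertension.

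Marinobufagenin is a steroid of the cardiotonic type that mammals make themselves, and it binds and inhibits the sodium pump, Na/K-ATPase. In rats that retain sodium its level rises, and it is known to act through the pump on a kinase pathway that removes the transcription factor Fli1, a repressor of collagen genes. TGF-β, released from its latent form outside the cell, signals through its receptors to Smad proteins, which raise the transcription of collagens, connective tissue growth factor and other matrix genes in cardiac fibroblasts. An antibody that binds marinobufagenin takes it away from the pump.

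The tissue label was checked against marker genes. Of 12 cardiomyocyte markers, 11 had a probe, and 9 of these were detected on all 12 arrays. Their summed linear intensity ran from 14736 to 25184 on control arrays and from 12972 to 18112 on antibody arrays. Of 7 kidney markers with a probe, Umod, Slc34a1, Aqp2, Slc12a3 and Nphs1 were detected on none of the arrays, Kap was detected on 1 control array, and Slc22a6 on 5 control and 4 antibody arrays. Myl7, the light chain of atrial myosin, was detected on 4 of 6 arrays in each group.

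The antibody arrays were dimmer than the control arrays. Brightness is taken here as log2 of the 95th percentile of an array's deposited signal. It was 7.97 at the lowest, 8.56 at the median and 9.73 at the highest on control arrays, and 7.44, 7.80 and 8.54 on antibody arrays. The ranges overlapped between 7.97 and 8.54, where 3 control and 2 antibody arrays lay. The means were 8.65 ± 0.61 and 7.88 ± 0.37 (SD, n = 6 each), a difference of -0.76 (exact permutation test over 924 splits, two-sided p = 0.0216, adjusted p = 0.0216 over 2 measures). The number of detected probes, those with a deposited detection p-value below 0.05, fell from 5556 ± 766 to 4448 ± 575 of 22523 (SD, n = 6 each; exact permutation p = 0.0130, adjusted p = 0.0216). Control replicate 1 was the brightest array and had the most detected probes, 7033, and without it the brightness gap was -0.55. Brightness fell at each step from control replicate 1 to 6, from 9.73 to 7.97. It rose at each step from antibody replicate 2 to 6, from 7.44 to 8.54, with antibody replicate 1 at 7.76. What this order reflects was not tested. The low-salt heart arrays were all brighter, from 10.02 to 10.70, with 7475 to 8356 detected probes. Why the antibody arrays were dimmer was not tested. The labels and files used here name no chip position or date, so technical differences between arrays could not be separated from differences in the tissue. In bulk tissue, less RNA per cell and fewer cells of a type cannot be told apart either.

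**Figure D1:**
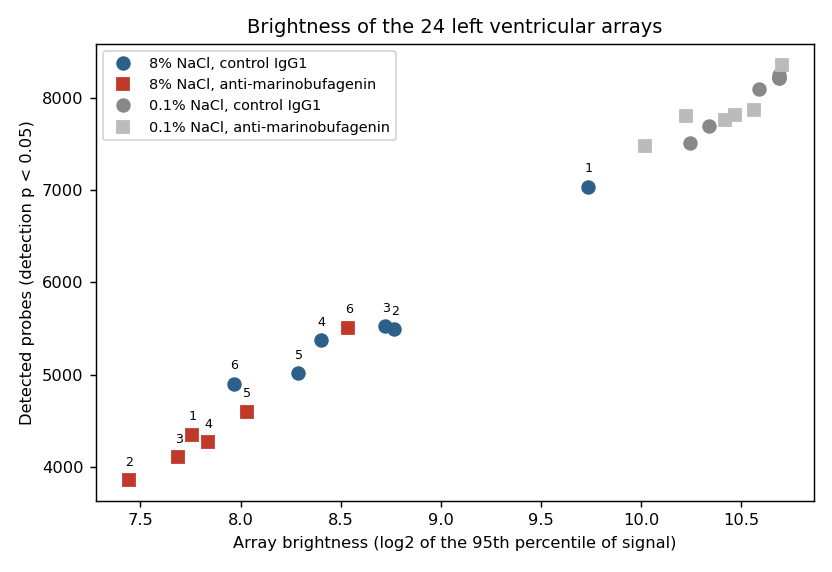
Each point is 1 left ventricle array, with brightness (log2 of the 95th percentile of signal) on the horizontal axis and the number of detected probes on the vertical axis. Numbers give the replicates of the 2 high-salt groups. The high-salt antibody arrays lie at 7.44 to 8.54, the high-salt control arrays at 7.97 to 9.73, and the low-salt arrays at 10.02 to 10.70.

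The comparison was therefore made in 2 ways over the same 4919 probes, those detected on at least 6 of the 12 arrays. The first took the difference between the groups as it stood, in log2 of normalized intensity. The second added array brightness as a covariate, so that the difference was read at equal brightness, and gave for each probe a slope, the log2 change per unit of brightness within the groups. For each probe the first difference is exactly the second plus the slope times the gap of -0.76. A slope shared by both groups is an assumption, and at equal brightness the standard errors were larger by a median factor of 1.18.

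In the direct comparison 117 of 4919 probes (2.38%) passed an adjusted p of 0.05 (limma with Benjamini-Hochberg adjustment). Of these, 36 were higher (0.732% of probes tested) and 81 were lower (1.65%) on antibody arrays, and 5 of the higher and 25 of the lower differed by more than 2-fold. At an unadjusted p of 0.05 there were 1201. Among all probes tested, the groups did not overlap for 28 that were higher (0.569%) and 38 that were lower (0.773%), which include 11 of the called rises and 24 of the called falls. At equal brightness 1 probe (0.0203%) passed, that of Col8a1, and 486 did at an unadjusted p of 0.05. The brightness slope itself passed for 747 probes (15.2%), of which 285 rose and 462 fell with brightness.

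The number of calls depended on single arrays. Leaving out antibody replicates 1 to 6 in turn gave 44, 31, 8, 28, 62 and 727 calls, and leaving out control replicates 1 to 6 gave 60, 15, 7, 38, 10 and 326. Antibody replicate 6 was the brightest array of its group and control replicate 6 the dimmest of its group, and the counts were highest without either of these. Of the 27 called genes named here, 6 kept their call whichever array was left out: Fhl1, Col8a1, Scn3b, Grk5, Cited4 and Pfkp. The other 21 lost it in each of 4 fits, those without antibody replicate 3 and without control replicate 2, 3 or 5. The spread was wider among antibody arrays, with a median SD per probe of 0.36 against 0.28.

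Called higher and lower probes differed in the share of their difference left at equal brightness, and also in how many arrays detected them. All 36 higher probes had a negative common slope, which means higher levels on dimmer arrays within the groups under that slope, and 21 of these slopes passed the threshold. At equal brightness a median of 46.4% of their log2 difference was left, from 25.8% to 96.2%, and 15 of the 36 kept at least 50% of it. Among the 81 lower probes, a median of 74.7% was left, from 40.1% to 150%, 73 kept at least 50%, and 13 slopes passed. Of the lower probes, 70 had a positive and 11 a negative slope. These shares describe the called probes, which were picked by the same 12 arrays. All 12 arrays detected 31 of the higher probes and 10 of the lower probes. Where antibody arrays did not detect a probe, its slope rests in part on background values. The shares left of higher and of lower probes are therefore not on the same footing.

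**Figure D2:**
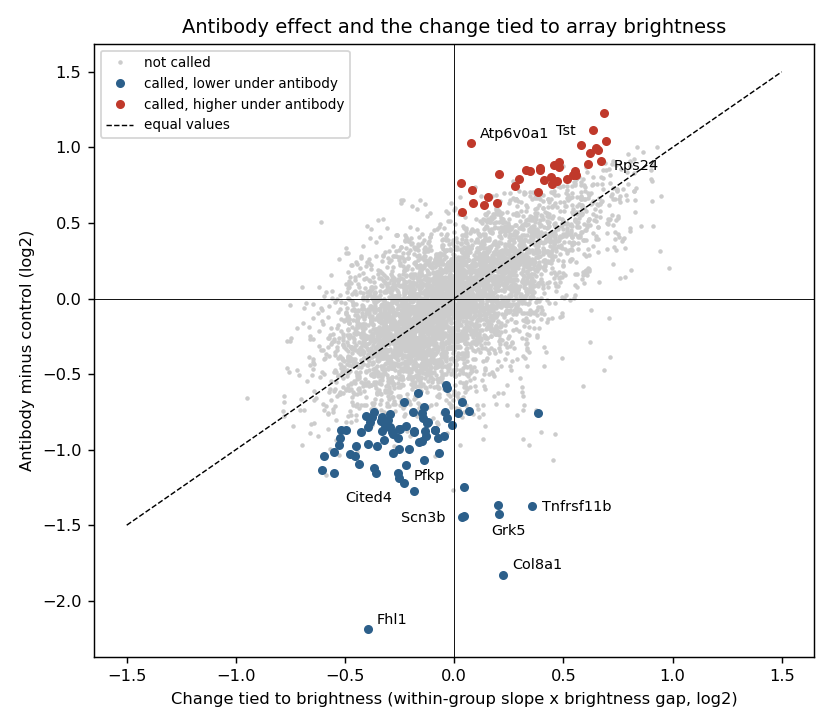
Each point is 1 of 4919 probes. The horizontal axis is the log2 change tied to brightness (slope times the brightness gap) and the vertical axis is the observed log2 difference, antibody minus control. Points on the diagonal have no difference left at equal brightness. Rps24 and Tst lie towards the diagonal, and Col8a1, Grk5 and Scn3b lie far below it with a brightness-tied change at or above 0.

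By mean level over the 12 arrays, with the tested probes cut into 3 sets of nearly equal size, 42 of the called falls lay in the dimmest set, 33 in the middle set and 6 in the brightest. Of the called rises 6, 21 and 9 lay in these sets. A probe could enter the test through the control arrays alone. When all probes were tested without that filter, 22 passed, of which 11 were among the 117, and of the 27 called genes named here Col8a1, Cited4 and Pfkp kept theirs, each with an adjusted p of 0.0353.

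Col8a1 encodes the α1 chain of type VIII collagen, a short-chain network collagen laid down by vascular cells and fibroblasts. Its level was 6.39 at the lowest, 7.27 at the median and 7.88 at the highest on the 6 control arrays, all detected, and 4.83, 5.29 and 5.77 on the 6 antibody arrays, of which 2 were detected. Every antibody array lay below every control array. The difference was -1.83 ± 0.24 (log2, SE), or 3.55-fold lower (adjusted p = 0.000935). The slope with brightness was -0.29 ± 0.25 (SE). As 4 of the 6 antibody values were not above background, this fold and this slope rest in part on background values, and the same holds for the other falls that few antibody arrays detected. At equal brightness the difference was -2.05 ± 0.29 (SE; adjusted p = 0.00691). Among the 5 arrays of shared brightness it was -1.59, with an adjusted p of 0.0502. The call at equal brightness was lost without control replicate 5 (adjusted p = 0.0674) or control replicate 6 (adjusted p = 0.101). In kidney of the same animals the difference was -1.54 ± 0.33 (adjusted p = 0.0578). The promoter of Col8a1, from RefSeq on the rat assembly GRCr8 (chr11:56246532-56246831, plus strand, 250 bases before to 50 after the gene's start), is shown because this gene alone passed at equal brightness. It was searched on both strands for the Smad-binding palindrome GTCTAGAC, for the AP-1 site TGANTCA and for GAGGAA, the core of sites of the macrophage factor PU.1. It held none of these, and GTCTAGAC was found in 0.197% of 33469 promoters of this length.
Col8a1: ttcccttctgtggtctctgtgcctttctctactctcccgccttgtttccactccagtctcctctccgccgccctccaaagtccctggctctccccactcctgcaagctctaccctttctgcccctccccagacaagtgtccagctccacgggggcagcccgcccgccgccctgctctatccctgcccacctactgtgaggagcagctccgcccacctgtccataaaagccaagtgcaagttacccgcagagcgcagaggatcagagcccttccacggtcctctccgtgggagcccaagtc

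A sodium channel subunit and a receptor kinase were among the falls that were as large at equal brightness. Scn3b, an auxiliary β subunit of voltage-gated sodium channels, stood at 6.34, 6.76 and 7.36 (lowest, median and highest) on control arrays and at 4.80, 5.21 and 6.27 on antibody arrays, and the groups did not overlap. It was 2.72-fold lower, with a log2 difference of -1.45 ± 0.24 (SE; adjusted p = 0.00584), and -1.48 ± 0.31 (SE) at equal brightness, where it did not pass (adjusted p = 0.123). Grk5, a kinase that phosphorylates β-adrenergic and other G protein-coupled receptors and promotes hypertrophy in mouse hearts, stood at 5.72, 6.64 and 7.40 on control arrays and at 4.86, 5.30 and 5.67 on antibody arrays. Here too the groups did not overlap. Grk5 was 2.68-fold lower (log2 -1.42 ± 0.24, SE; adjusted p = 0.00736), and at equal brightness the difference was -1.63 ± 0.31 (SE; adjusted p = 0.0745). Both genes were detected on all 6 control arrays and on 2 of 6 antibody arrays.

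Fhl1, Cited4 and Pfkp fell in the direct comparison and lost little of their difference at equal brightness. Fhl1, a LIM-domain protein of the sarcomere that takes part in stretch sensing in mouse heart, stood at 7.12, 7.82 and 9.05 on control arrays and at 4.61, 5.66 and 6.74 on antibody arrays. This was the largest fall among named genes, 4.55-fold (log2 -2.19 ± 0.35, SE; adjusted p = 0.00459), with no overlap. Cited4, a partner of the coactivators CBP and p300, stood at 5.56, 6.25 and 6.52 against 4.55, 4.76 and 5.40. The log2 difference was -1.28 ± 0.19 (SE; adjusted p = 0.00459), and 1 antibody array detected it. Pfkp, the platelet isoform of the glycolytic enzyme phosphofructokinase, stood at 6.38, 6.72 and 7.21 against 5.01, 5.64 and 5.96 and was 2.34-fold lower (adjusted p = 0.00459). For these 3 genes 81.3% to 85.6% of the log2 difference was left at equal brightness, and their adjusted p there ran from 0.159 to 0.217.

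**Figure D3:**
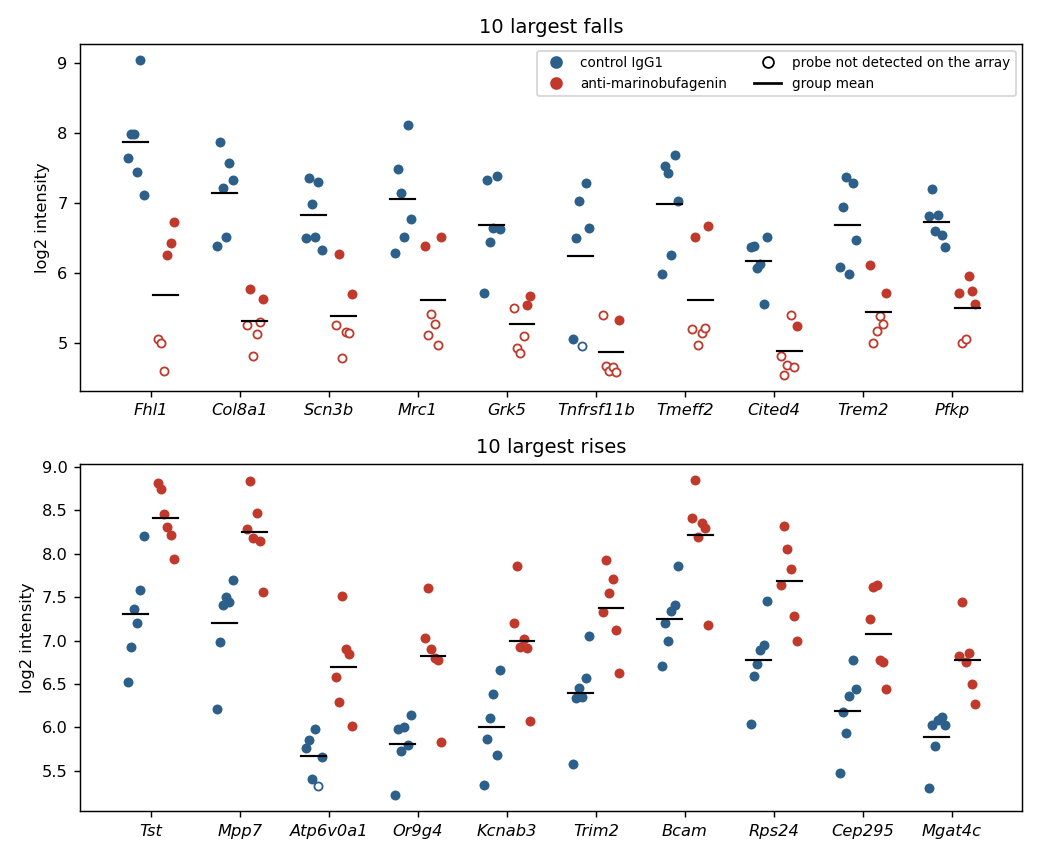
Log2 normalized intensity of the 10 genes that fell most and the 10 that rose most among those called, 1 point per array, with the group mean as a line and open points where the probe was not detected. Antibody arrays lie below all control arrays for Fhl1, Col8a1, Scn3b, Grk5, Cited4 and Pfkp, and above all control arrays for Atp6v0a1 and Mgat4c.

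Mrc1, C1qb and C1qc, which mark macrophages, were called lower on antibody arrays. Of 10 macrophage markers 7 had a probe and these 3 entered the test, where 1.65% of all probes were called lower. Mrc1, the mannose receptor of resident macrophages, stood at 6.29, 6.96 and 8.11 on control arrays and at 4.98, 5.35 and 6.53 on antibody arrays, 2.71-fold lower (log2 -1.44 ± 0.30, SE; adjusted p = 0.0258). The ranges overlapped. C1qb, a chain of the complement starter C1q, stood at 6.34, 7.11 and 7.99 against 5.53, 6.11 and 6.71, a log2 difference of -1.03 ± 0.26 (SE; adjusted p = 0.0441). C1qc, another chain of C1q, stood at 5.29, 6.19 and 6.57 against 4.67, 5.22 and 5.77, a difference of -0.88 ± 0.23 (SE; adjusted p = 0.0442). At equal brightness the 3 differences were -1.48, -0.95 and -0.60.

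The macrophage calls rest on signals near background. C1qc was detected on 1 antibody array and Mrc1 on 2, so these genes entered the test through the control group, and their count gives no support of its own. Without the detection filter none of the 7 was called, their median difference was -0.45, and 6 of the 7 lay below 0. Cd163 was detected on none of the 12 arrays. Among the untested members, Cd14 differed by -0.45, C1qa by -0.35, Adgre1 by -0.12 and Cd163 by 0.04. The summed linear intensity of the 7 markers ran from 323 to 757 on control arrays and from 219 to 347 on antibody arrays. All 3 calls were lost in each of 6 fits, those without antibody replicate 2, 3 or 4 and without control replicate 2, 3 or 5.

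Trem2, a lipid-sensing receptor of macrophages, was outside that marker list and was among the 10 largest falls. It stood at 5.98, 6.71 and 7.38 on control arrays and at 5.0, 5.33 and 6.12 on antibody arrays, with a log2 difference of -1.25 ± 0.25 (SE; adjusted p = 0.0212) and of -1.29 ± 0.32 (SE) at equal brightness. The promoters of Mrc1 (chr17:82157475-82157774, plus strand), Trem2 (chr9:20151730-20152029, minus strand) and C1qb (chr5:154407778-154408077, minus strand) are shown because these myeloid genes were each called lower. They are RefSeq sequences of GRCr8, and capitals mark matches to GAGGAA, read on either strand, and in Trem2 also the match to the AP-1 site. GAGGAA was found in 6 of the 20 promoters of called named genes that were at hand and in 27.6% of all 33469 promoters, and the AP-1 site in 2 of the 20 and in 7.33%. A match of letters is not a binding site.
Mrc1: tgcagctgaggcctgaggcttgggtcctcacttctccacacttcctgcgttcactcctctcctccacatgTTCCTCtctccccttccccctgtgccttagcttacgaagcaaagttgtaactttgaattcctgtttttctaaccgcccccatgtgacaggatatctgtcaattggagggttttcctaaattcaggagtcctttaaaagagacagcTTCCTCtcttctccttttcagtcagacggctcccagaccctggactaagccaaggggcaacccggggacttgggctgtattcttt
Trem2: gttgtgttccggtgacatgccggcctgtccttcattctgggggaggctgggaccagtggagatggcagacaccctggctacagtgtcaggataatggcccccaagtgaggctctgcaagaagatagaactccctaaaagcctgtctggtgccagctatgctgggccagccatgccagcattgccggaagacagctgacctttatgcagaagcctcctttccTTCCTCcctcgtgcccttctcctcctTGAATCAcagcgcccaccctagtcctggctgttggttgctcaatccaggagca
C1qb: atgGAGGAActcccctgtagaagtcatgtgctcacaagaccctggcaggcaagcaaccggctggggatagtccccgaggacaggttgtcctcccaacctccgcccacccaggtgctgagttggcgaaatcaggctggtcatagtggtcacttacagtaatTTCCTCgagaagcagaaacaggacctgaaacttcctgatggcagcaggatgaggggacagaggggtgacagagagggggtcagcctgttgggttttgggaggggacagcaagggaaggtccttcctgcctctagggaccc

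Tnfrsf11b and Tmeff2 completed the 10 largest falls among named genes. Tnfrsf11b, the decoy receptor osteoprotegerin, stood at 4.97, 6.57 and 7.29 on control arrays and at 4.59, 4.67 and 5.40 on antibody arrays, where 1 array detected it (log2 -1.37 ± 0.34, SE; adjusted p = 0.0408). Tmeff2, a membrane protein with follistatin-like domains, stood at 5.99, 7.24 and 7.68 against 4.97, 5.21 and 6.67 (log2 -1.37 ± 0.33, SE; adjusted p = 0.0380). Both overlapped between the groups, and at equal brightness the differences were -1.73 and -1.57.

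Among the largest called rises of named genes, Atp6v0a1 kept the largest share of its difference at equal brightness. This gene encodes a membrane subunit of the proton pump that acidifies lysosomes and secretory vesicles. It stood at 5.33, 5.71 and 5.99 on control arrays and at 6.02, 6.71 and 7.52 on antibody arrays, with no overlap, and was 2.04-fold higher (log2 1.03 ± 0.21, SE; adjusted p = 0.0255). Its slope was -0.10, and 92.7% of the difference was left at equal brightness (0.95 ± 0.27, SE; adjusted p = 0.311).

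Tst, the mitochondrial sulfur-transfer enzyme rhodanese, had the largest rise among named genes. It stood at 6.52, 7.28 and 8.21 on control arrays and at 7.95, 8.39 and 8.82 on antibody arrays, 2.17-fold higher (log2 1.12 ± 0.23, SE; adjusted p = 0.0255). Its level fell by 0.83 ± 0.16 per unit of brightness within the groups (adjusted p of the slope 0.00322), and 43.2% of the rise was left at equal brightness. Rps24, a protein of the small ribosomal subunit, stood at 6.03, 6.81 and 7.46 against 6.99, 7.73 and 8.32 (log2 0.91 ± 0.24, SE; adjusted p = 0.0460). Its slope was -0.88 ± 0.15 (SE; adjusted p = 0.00128) and 25.8% of its rise was left. Under the common slope, the levels of both genes ran higher on dimmer arrays within the groups as well as between them.

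The other 7 of the 10 largest rises behaved like Tst. They were Mpp7 (a scaffold protein of cell junctions), Or9g4 (an odorant receptor), Kcnab3 (an auxiliary subunit of potassium channels), Trim2 (a ubiquitin ligase), Bcam (a laminin receptor), Cep295 (a centriole protein) and Mgat4c (a glycosyltransferase). Their log2 differences lay between 0.88 and 1.04 with adjusted p from 0.0320 to 0.0499, and between 31% and 48% of each was left at equal brightness. All 7 slopes were negative and passed the threshold. Mgat4c did not overlap between the groups (5.30, 6.03 and 6.13 on control arrays, 6.27, 6.79 and 7.45 on antibody arrays). Or9g4 belongs to a large family and Rps24 has many near-identical copies, so probes for these genes may read other transcripts.

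The direction of the rises also depended on the scale. When each array was scaled to its median signal instead of by quantiles, the median difference of all 4919 probes was -0.75 against -0.04, and 2123 probes were called lower and 0 higher. On that scale none of the called rises named here was called, and Bcam, Rps24 and Ndufv3 were slightly below 0. The called falls named here kept their calls on it, which the downward shift of all probes favours. Against the shifted median, Fhl1 lay at -2.62 and Col8a1 at -2.20, and Nfatc4 at -1.05 and Gucy1b1 at -0.93 lay close to it.

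**Figure D4:**
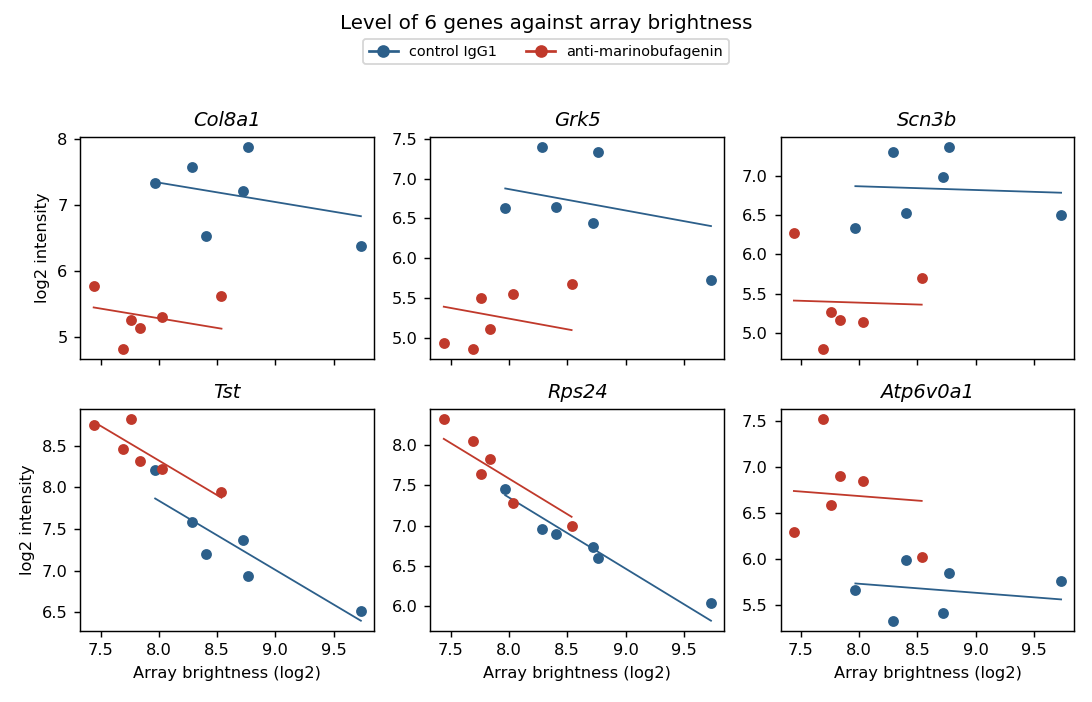
Log2 normalized intensity against array brightness for 6 genes, 1 point per array, with the common within-group slope drawn through each group. For Col8a1, Grk5 and Scn3b every antibody array lies below every control array. Arrays of both groups are found together only between brightness 7.97 and 8.54. The common slope runs down for Tst and Rps24, and Atp6v0a1 separates by group with a slope near 0.

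Of the TGF-β pathway, 25 of 35 genes had a probe, 8 were tested and none passed, with a median difference of -0.27 against -0.04 for all probes. The ligand gene Tgfb1 stood at 5.82, 6.37 and 6.84 on control arrays and at 5.47, 5.71 and 6.05 on antibody arrays, with a small overlap. Its difference was -0.65 ± 0.18 (SE; adjusted p = 0.0571), and -0.69 at equal brightness. Over the alternatives its adjusted p ran from 0.0074, with the spread shared over 24 arrays, a setting that called 23.8% of all probes, to 0.457 on the 5 arrays of shared brightness. Ccn2, connective tissue growth factor and a classical target of the pathway, stood at 9.50, 10.001 and 10.80 against 8.77, 9.32 and 9.85, a difference of -0.70 ± 0.24 (SE; adjusted p = 0.0875). Tgfb2 differed by -0.74 ± 0.33 (SE; adjusted p = 0.184) and Smad4, the Smad shared by all branches, by -0.53 ± 0.20 (SE; adjusted p = 0.122). Over all 25 genes with a probe, tested or not, 17 lay below 0 and the median was -0.07.

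Collagen and matrix genes leaned lower, with 1 call. Of 47 genes 40 had a probe and 23 were tested, and Col8a1 was the call, where 1.65% of all probes were called lower. The median of the 23 was -0.26 directly and -0.25 at equal brightness, and 20 lay below 0 directly. Of all 4919 probes, 2665 lay below 0 directly. Col5a2, a fibril-forming collagen, stood at 6.96, 7.24 and 7.41 against 5.91, 6.56 and 7.15 (log2 -0.65 ± 0.19, SE; adjusted p = 0.0608). Spp1, the matrix protein osteopontin that macrophages also secrete, stood at 5.51, 6.64 and 8.20 against 5.01, 5.78 and 6.40 (log2 -1.07 ± 0.35, SE; adjusted p = 0.0777). Over all 40 genes with a probe 33 lay below 0, with a median of -0.21. Among those that missed the detection filter, the collagen cross-linking enzyme Lox was detected on 5 control arrays and no antibody array and differed by -0.99 (adjusted p = 0.0914), Fn1 was detected on 4 and 0 and Postn on 3 and 0. These 3 were picked after their values were seen. Col1a1 was detected on no array of either group. Of the fibroblast markers, all 5 tested were below 0 with a median of -0.52 and none called. Dcn, Lum and Col3a1 belong to both lists, so the lists share these probes. The summed linear intensity of the fibroblast markers was 2067 to 3746 on control and 1604 to 2852 on antibody arrays. Their part in the matrix values was not tested.

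Of the sodium pump and marinobufagenin list, 6 of 22 genes were tested and none was called. Fli1 stood at 6.86, 6.96 and 7.39 on control arrays and at 6.30, 6.77 and 7.26 on antibody arrays, a difference of -0.25 ± 0.18 (SE; adjusted p = 0.404). Fxyd1, the pump regulator phospholemman, differed by -0.27 (adjusted p = 0.546) and the pump subunit gene Atp1b3 by -0.16 (adjusted p = 0.596).

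Hypertrophy genes had 2 calls, both lower, among 17 tested, where 1.65% of all probes were called lower: Fhl1, described above, and Nfatc4, a calcineurin-dependent transcription factor (log2 -0.75 ± 0.19, SE; adjusted p = 0.0441), of which 50.8% was left at equal brightness. Fhl1 was detected on 6 control and 3 antibody arrays, and Nfatc4 on 6 and 1. The control arrays alone admitted both to the test, so their count gives no support of its own. The median of the 17 was -0.27 and -0.14 at equal brightness. Nppa, the atrial natriuretic peptide gene that the stressed ventricle re-expresses, stood at 11.16, 11.90 and 12.76 against 10.10, 11.28 and 11.91 (log2 -0.78 ± 0.30, SE; adjusted p = 0.122). Nppb, the other natriuretic peptide gene of the list, went the other way, by 0.46 and by 0.09 at equal brightness, and was not called. Of the 17 genes, 15 lay below 0, against 2665 of all 4919 probes. Without the detection filter no gene of this list passed.

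Single members of other lists were called, against 2.38% of all probes. In glucose use, with 18 tested, the 2 calls were Pfkp and Gyg1, the protein that primes glycogen, which stood at 8.35, 8.94 and 9.35 against 7.54, 8.09 and 8.50 (adjusted p = 0.0320, equal-brightness difference -0.46). In the renin-angiotensin, endothelin and adrenergic list, with 11 tested, they were Grk5 and Gucy1b1, the β subunit of the nitric oxide receptor, at 5.43, 6.01 and 6.25 against 4.79, 5.08 and 5.74. Gucy1b1 kept 94.1% of its difference of -0.75 ± 0.19 (SE; adjusted p = 0.0445), which rests in part on background values. It was detected on 6 control arrays and 1 antibody array, and Grk5 on 6 and 2. The control arrays alone admitted both genes to the test, so their count gives no support of its own. In oxidative stress, with 25 tested, Nfe2l2, the transcription factor NRF2 that turns on antioxidant genes, stood at 6.36, 6.66 and 7.21 against 4.70, 5.90 and 6.41 (log2 -0.98 ± 0.25, SE; adjusted p = 0.0460), and -0.53 at equal brightness.

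With quantile normalization, genes of oxidative phosphorylation and fatty acid oxidation showed little difference in the direct comparison and leaned higher at equal brightness. Of 53 tested oxidative phosphorylation genes 1 was called, Ndufv3, a subunit of complex I, which was higher by 0.82 ± 0.21 (log2, SE; adjusted p = 0.0482) and by 0.27 at equal brightness. The median of the 53 was -0.04, equal to that of all probes, and 0.15 at equal brightness, where 45 lay above 0. Of all 4919 probes 0.732% were called higher, and at equal brightness 2371 lay above 0. The direct result for oxidative phosphorylation depended on the scale. On the authors' scores the median of the 53 was 0.29 against -0.13 for all probes, with 37 above 0 and 2 called higher. With median scaling all 53 lay below 0 and 19 were called lower, at a median of -0.93 against -0.75 for all probes. Of 24 tested genes of fatty acid oxidation none was called with quantile normalization. Their median was -0.03, and 0.19 at equal brightness, where 21 lay above 0 and the median of all probes was -0.01. Cpt1b, the carnitine transferase that admits fatty acids to heart mitochondria, stood at 8.35, 8.59 and 8.80 against 8.89, 8.94 and 9.40 without overlap (log2 0.44 ± 0.15, SE; adjusted p = 0.0972), the same as at equal brightness. Of 53 tested ribosomal protein genes Rps24 was called, as a rise. In this list 41 genes lay below 0 with a median of -0.10, against 2665 of all 4919 probes. Without the detection filter Rps24 was not called (adjusted p = 0.190). Rps3, detected on 6 arrays of each group, was called there. It differed by -0.40 (adjusted p = 0.0288), and by -0.34 at equal brightness. Without background correction 2 genes of the list were called lower and 0 higher. Among the potassium channel genes Kcnj3, which encodes a subunit of the acetylcholine-gated channel, differed by 0.88 ± 0.29 (SE; adjusted p = 0.0781) and by -0.02 at equal brightness, so that none of that difference was left.

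No member was called among 10 tested inflammation genes, 12 of interferon and antigen presentation, 26 of heat shock and the unfolded protein response, 13 of calcium handling and ion channels, 7 matrix proteases and inhibitors, 6 of the cell cycle and 6 of the circadian clock. Their medians lay between -0.09 and 0.12. Markers of blood differed between arrays without a call: the 4 tested erythroid genes were all below 0 with a median of -0.65, and their summed linear intensity ran from 6708 to 26951 on control and from 4571 to 10692 on antibody arrays. Lymphocyte markers were tested in no case, at a summed intensity of 176 to 192 on control and 179 to 199 on antibody arrays.

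**Figure D5:**
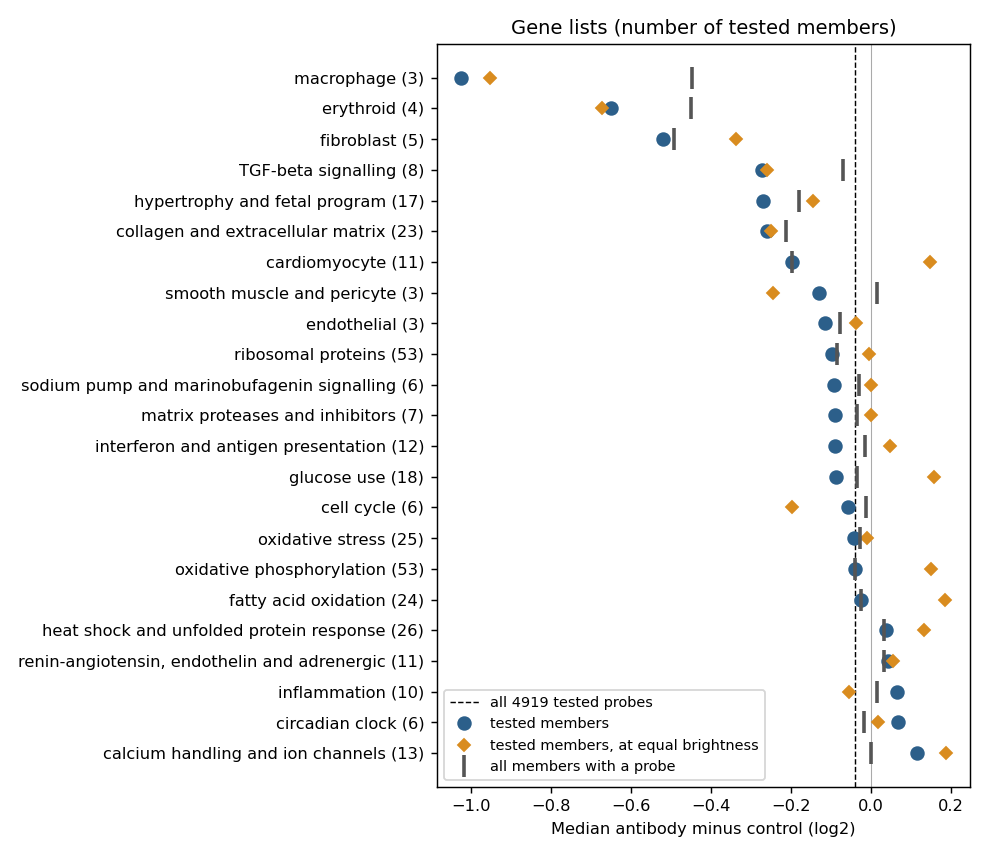
Median log2 difference, antibody minus control, of each gene list, as measured over its tested members, at equal brightness, and over all members with a probe. The dashed line marks the median of all 4919 probes. The macrophage list lies lowest at -1.03, from 3 tested genes, and the oxidative phosphorylation list moves from -0.04 to 0.15 at equal brightness.

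The antibody effect was also set against that on the low-salt diet. In the 24 heart arrays, over 8354 probes, the effect differed between diets for 2.86% of probes, being more positive on high salt for 55 and more negative for 184. On low salt alone 2 probes (0.0239%) were called, with 450 at an unadjusted p of 0.05. The low-salt arrays varied less and did not overlap the high-salt arrays in brightness, so that diet and brightness cannot be told apart here. With brightness in the fit 16 of these probes passed the threshold and no others. With median scaling 6 probes passed, of which 2 were among them. Leaving out antibody replicate 2, 3 or 4 gave 143, 103 and 126 calls, leaving out control replicate 2 or 3 gave 148 and 113, and leaving out antibody replicate 6 or control replicate 6 gave 722 and 507.

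For several genes that fell, the high-salt control arrays had the highest mean of the 4 heart groups. Scn3b had means of 5.77 on low salt with control antibody, 5.91 on low salt with the marinobufagenin antibody, 8.44 on high salt with control antibody and 6.25 on high salt with the marinobufagenin antibody, all normalized over the 24 arrays. Grk5 had means of 6.12, 6.15, 8.26 and 6.07 in the same order. Mrc1 had 6.39, 6.83, 8.67 and 6.62. For Fhl1 and Cited4 the high-salt antibody mean lay below both low-salt means: 8.65, 8.88, 9.53 and 6.64 for Fhl1 and 7.02, 6.82, 7.64 and 5.31 for Cited4. The salt difference and the antibody difference share the high-salt control arrays, so the height of these arrays enters both. The difference of the antibody effect between diets was -3.12 ± 0.52 for Fhl1 (SE; adjusted p = 0.00268), -2.13 ± 0.38 for Cited4 (SE; adjusted p = 0.00477) and -2.32 ± 0.46 for Scn3b (SE; adjusted p = 0.00793). With brightness in the fit Fhl1 and Cited4 were the named genes that kept this call. The differences between diets are on the scale normalized over the 24 arrays. On that scale the high-salt means of Fhl1, Cited4 and Scn3b lay further apart than in the direct comparison. The direct differences were -2.19, -1.28 and -1.45. On low salt the antibody differences were 0.23, -0.20 and 0.13 in the same order.

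In kidney of the same high-salt animals 30 of 10895 probes (0.275%) were called. Of the 10 largest falls named in heart, the kidney differences were -1.54 for Col8a1, -0.32 for Mrc1, -0.24 for Grk5, -0.11 for Fhl1 and Trem2, 0.14 for Tnfrsf11b and 0.23 for Pfkp, and none of these passed. Scn3b, Cited4 and Tmeff2 were not tested in kidney. Tgfb1 differed by -0.83 in kidney (adjusted p = 0.115) and Atp6v0a1 by -0.15. Whether the effects differ between the organs was not tested.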

How the data were processed

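Per the labels' protocols, total RNA was amplified from an oligo-dT primer and hybridised to single-colour Illumina rat bead arrays of 22523 probes. The authors deposited 1 linear signal intensity and 1 detection p-value per probe and array, without normalization, read with GenomeStudio 2011.1 per the submitters' processing notes. The authors' deposited value table holds a score per probe and array. Set against the signals of the same array, it was the log signal brought to a mean of 0 and an SD of 1, with medians from -0.35 to -0.18, and it was used as an alternative only. The labels and files used here name no chip position or date, and no batch was tested.

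From the intensities, the 12 arrays were background-corrected with normexp, given an offset of 16, quantile normalized and log2 transformed (limma 3.58.1 neqc, R 4.3.3). A probe was tested if 6 or more of the 12 arrays detected it (p under 0.05). Tests used lmFit and eBayes on the 12 arrays alone, with Benjamini-Hochberg adjustment and a threshold of 0.05. The second fit added log2 of each array's 95th percentile of signal. The difference between diets was fitted over 24 heart arrays with weights per group. The fits were checked on simulated data. P-values measure the spread between animals.

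Of the probes, 13793 had 1 gene symbol in the platform annotation and none had several, and 13752 of these matched a RefSeq gene. Genes were named by rule: the 10 largest called rises and falls, the 5 largest of each at equal brightness, and up to 4 members with the smallest p of each list. Where a gene had several tested probes the brightest was used, and the probes of Txn1 and Tie1 disagreed. The comparison, the gene lists and the tests were chosen with earlier results of these data known. Replicate numbers did not pair the animals. Correlations of arrays within a group ran from 0.893 to 0.979, and no 2 arrays held identical values.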

Additional observations from a re-analysis of the deposited data

Results flagged for a closer look

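In 11 of 216 groups of 6 arrays checked, 1 array lay far from the other 5, where chance gives about 1 in 20. Control replicate 1 had 7033 detected probes against 4903 to 5522 on the other control arrays. It also had the lowest Slc25a20, 7.49 against 7.96 to 8.21, and the lowest Nqo1, 7.46 against 8.87 to 9.69. Control replicate 2 had the lowest Adra1b, 9.03 against 9.72 to 10.11. Among antibody arrays, replicate 6 had the highest Fxyd1 (7.31 against 5.25 to 5.90), Nfatc4 (6.06 against 5.0 to 5.33) and Pdgfra (7.25 against 6.07 to 6.43). Replicate 1 had the highest Mmp15, 6.45 against 5.49 to 5.76, and the lowest Hba-a1, 10.98 against 11.85 to 12.21. Replicate 4 had the lowest Timp1, 5.04 against 6.09 to 6.67, and replicate 2 the highest Rela, 6.28 against 5.21 to 5.58. All these levels are log2 normalized intensities.

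The antibody effect differed between the diets for 2.86% of 8354 probes, tested as an interaction in limma, and 20 of 106 named genes were among them, with adjusted p from 0.00268 to 0.0492. Named genes were chosen by their antibody difference on high salt, which is part of this interaction, so their number says nothing about it. The values below are on the scale normalized over 24 arrays, so they cannot be set against the high-salt differences of the direct comparison. The difference was negative, meaning a lower antibody effect on high salt, for Fhl1 (-3.12), Col8a1 (-2.74), Mrc1 (-2.49), Scn3b (-2.32), Grk5 (-2.22) and Trem2 (-2.21). It was also negative for Cited4 (-2.13), Tmeff2 (-2.08), C1qc (-1.96), Pfkp (-1.66), Gucy1b1 (-1.48), Gstm1 (-1.47), Nfatc4 (-1.45), Nfe2l2 (-1.37) and Gyg1 (-0.89). It was positive for Atp6v0a1 (1.72), Trim2 (1.26), Or9g4 (1.22), Mmp15 (1.13) and Rps24 (1.07). With array brightness in the fit Fhl1 and Cited4 kept the call, and with median scaling Fhl1 and Scn3b did.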

How the results depend on the processing

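Few arrays, their wide spread and dim signal limit the precision, and the share of probes called, 2.38%, moved with nearly every choice. It was 43.2% with median scaling, 0.325% with normalization over 24 arrays, 0.691% without background correction, 4.76% on the authors' scores, 0.0977% without the detection filter, 9.72% with array weights, 23.8% with 1 spread shared by 24 arrays and 0.508% without the brightest and dimmest array. It was 0 by limma where all 12 arrays had to detect a probe at p under 0.01 (403 at an unadjusted p of 0.05) and 0 on the 5 arrays of shared brightness (410 unadjusted). Leaving out 1 array gave 0.142% to 14.8%. Same-numbered animals deviated together in no pair (correlations of -0.47 to 0.03), and with the replicate number as a block the share was 0.142%. At equal brightness the 1 call became 9 with median scaling, 3 without background correction and on the scores, 6 with array weights and under the stricter detection rule, 4 with an intensity trend, 95 with 1 shared spread, 2 with the number of detected probes as covariate, and 0 to 4 with 1 array left out. Col8a1 was not among the calls on the scores, and it was left out by the stricter detection rule. The count became 0 with normalization over 24 arrays, without the filter and on the arrays of shared brightness. The share that differed between diets, 2.86%, became 1.80% with 1 shared spread, 0.192% with brightness, 0.0718% with median scaling, 0.724% of the larger set without the filter, 1.69% with the replicate block, and 1.23% to 8.64% with 1 array left out. The brightness gap was -0.10 for the median signal (exact permutation p = 0.0628) and -0.90 to -0.55 with 1 array left out, and the gap in detected probes was -1320 to -812. Median scaling moved all probes down, to a median of -0.75, and 5 named genes changed sign: Bcam to -0.068, Rps24 to -0.045, Ndufv3 to -0.030, Plat to -0.61 and Cyp27a1 to -0.98. All but Cyp27a1 lay above that shifted median. Of the 27 called named genes, 16 kept the call with median scaling, 17 on the scores, 9 without background correction, 6 with the block, 5 with normalization over 24 arrays and 0 within the shared brightness range. The cause of these changes was not tested, beyond the smaller number of arrays or probes that some settings leave.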

Other observations

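Called probes outside the lists add to the description, and these genes were chosen after their values were seen. Ctsb, a lysosomal protease, fell from 9.12 ± 0.46 to 8.15 ± 0.21 (log2 intensity, SD, n = 6 each), with a limma adjusted p of 0.0226, and its difference was -0.57 at equal brightness. Ctsk, a collagen-degrading lysosomal protease, fell by 0.94 (adjusted p = 0.0421) and differed by -0.79 at equal brightness. Vegfb, a growth factor of the VEGF family, fell from 6.93 ± 0.25 to 5.75 ± 0.68 (SD, n = 6 each; adjusted p = 0.0255), with -0.93 left at equal brightness. Prss23, a secreted serine protease, fell by 0.76 (adjusted p = 0.0465) and differed by -1.14 at equal brightness, where its adjusted p of 0.0737 was the lowest after Col8a1. Igfbp6, a binding protein of insulin-like growth factors, fell by 0.84 (adjusted p = 0.0442), with -0.83 left.

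A few rises did not follow brightness. Tob2, an antiproliferative protein of the BTG family, rose from 8.36 ± 0.33 to 9.13 ± 0.25 (SD, n = 6 each; limma adjusted p = 0.0349), with 0.74 of 0.77 left at equal brightness. Acaa1a, a thiolase of peroxisomal fatty acid oxidation, rose from 7.06 ± 0.08 to 7.64 ± 0.19 (SD, n = 6 each; adjusted p = 0.0445), with 0.54 of 0.57 left. Apln, the gene of the peptide apelin, and the Wnt inhibitor gene Wif1 followed it in part. They rose by 0.79 (adjusted p = 0.0460) and 0.85 (adjusted p = 0.0421), of which 0.50 was left for each.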
